A study of Callithrix jacchus with 4 samples.

Results

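The genes described here are 8 genes whose level was lower in injured than in control nuclei annotated as Endo, the vascular class of a single-nuclei RNA sequencing study of marmoset primary visual cortex (V1). They are *DCDC2*, *SLC6A13*, *BMP6*, *SLC24A3*, *MAPK4*, *KANK2*, *PATJ* and *PRKAG2*, which are 8 of the 16383 genes listed in both UMI tables. A UMI (unique molecular identifier) is the tag that marks a single captured transcript. The members were chosen for being lower in injured Endo nuclei, so their levels in Endo are given as a description with no test. The injured cohort was V1 of 3 adult marmosets taken 7 days after injection of endothelin-1, which constricts vessels and blocks local blood flow, and each animal gave 1 library. The control cohort was V1 of 3 adult marmosets that the methods describe as uninjured. Their nuclei were pooled into a single library, and differences among control animals were not measured. The labels name no strain, genotype or sex that separates the groups. The 4 libraries held 38147 nuclei, of which 4625 were annotated as Endo (1021, 1735 and 1688 in injured replicates 1, 2 and 3 and 181 in control).

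The wall of a brain vessel holds several cell types. Endothelial cells line the lumen and carry the VEGF receptor *FLT1* and the glucose transporter *SLC2A1*. Mural cells (pericytes and smooth muscle cells) wrap them, and fibroblast-like cells lie in the outer wall and in the meninges, where they make collagens, decorin (*DCN*) and the laminin chain encoded by *LAMA2*. The 8 genes have unlike roles. *BMP6* encodes a secreted ligand of the bone morphogenetic protein (BMP) family, and *SLC6A13* and *SLC24A3* encode membrane transporters, of GABA and taurine and of sodium, calcium and potassium. *MAPK4* encodes an atypical MAP kinase and *PRKAG2* a regulatory subunit of AMPK, the kinase that responds to low cellular energy. *KANK2* encodes an adaptor that binds talin at cell adhesions, *PATJ* a scaffold of the Crumbs polarity complex, and *DCDC2* a doublecortin family protein that binds microtubules.

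Median depth in Endo was 1671 to 1913.5 UMIs per nucleus in the injured libraries and 922 in control, and over all nuclei it was 3531 to 4504.5 and 2117. Any 2 libraries shared 15 to 27 nuclear barcodes. Nuclei isolation, sequencing site and instrument, sorting and the removal of doublets differed between the cohorts and not within them, so their effects and that of the injury cannot be told apart. Levels are the UMIs of a gene per 1000000 UMIs (CPM), summed over the nuclei of a type in a library. Fewer cells of a type and less RNA per cell cannot be told apart in such sums. Fold changes are those of edgeR's quasi-likelihood fit over all genes, in which the single control library was given the spread seen among the injured ones. Each injured library is another animal, and p-values measure the spread among these 3 libraries.

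In Endo, every member was lower in all 3 injured libraries than in control, by between 5.34-fold for *PATJ* and 9.51-fold for *PRKAG2*. The injured libraries lay close to each other, and no injured value came near the control value. The ligand gene *BMP6* stood at 206, 182 and 187 CPM in injured replicates 1, 2 and 3 and at 1127 CPM in control. Of the transporters, *SLC6A13* was at 162, 174 and 127 CPM against 1176, and *SLC24A3* at 27.1, 27.4 and 29.2 CPM against 265. The kinase gene *MAPK4* was at 108, 121 and 97.5 CPM in the injured libraries and 769 CPM in control. *PRKAG2* had the highest ratio of control to injured, with 231, 219 and 179 CPM in the injured libraries and 1994 CPM in control. *KANK2* stood at 106, 109 and 144 CPM against 902, *PATJ* at 142, 146 and 144 CPM against 769, and *DCDC2* at 137, 160 and 121 CPM against 1264. The control values rest on 54 UMIs for *SLC24A3* and on 157 to 407 UMIs for the other members.

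Fitted log2 fold changes in Endo ran from -3.12 ± 0.21 (SE) for *PRKAG2* to -2.28 ± 0.19 for *PATJ*, with a median of -2.79 over the 8 genes beside 0.26 over all 13205 genes tested. Of those 13205 genes, 1.99% were called lower and 13.9% had a fitted log2 fold change below -1, and 40.3% had a control level above all 3 injured libraries. The members are such genes by choice, and nothing is read from their count. They were not the most extreme of the called genes: *PRKAG2*, *SLC24A3* and *DCDC2* ranked 12, 13 and 16 from the lowest among the 263 genes called lower, and *PATJ* ranked 66. To be called, a gene needed an adjusted p under 0.01, a natural-log fold change larger than 0.25 in size, and detection in 10% or more of the nuclei of one cohort.

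The share of Endo nuclei with a UMI of each member was also lower. *PRKAG2* was detected in 59.7% of control nuclei (95% exact binomial interval 52.1 to 66.9%) and in 19.4%, 20.7% and 22.3% of injured nuclei. *DCDC2* was detected in 40.9% of control nuclei (33.6 to 48.4%) and in 4.60%, 7.09% and 5.51% of injured nuclei. *SLC24A3*, the member with the fewest UMIs, was detected in 22.1% (16.3 to 28.9%) of control nuclei and 4.41%, 4.21% and 4.56% of injured nuclei. For the other 5 members the control share ran from 38.7 to 47.0% and the injured mean from 11.4 to 18.1%. These shares were lower although the injured nuclei were deeper. Intervals here and below cover counting error only.

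**Figure D1:**
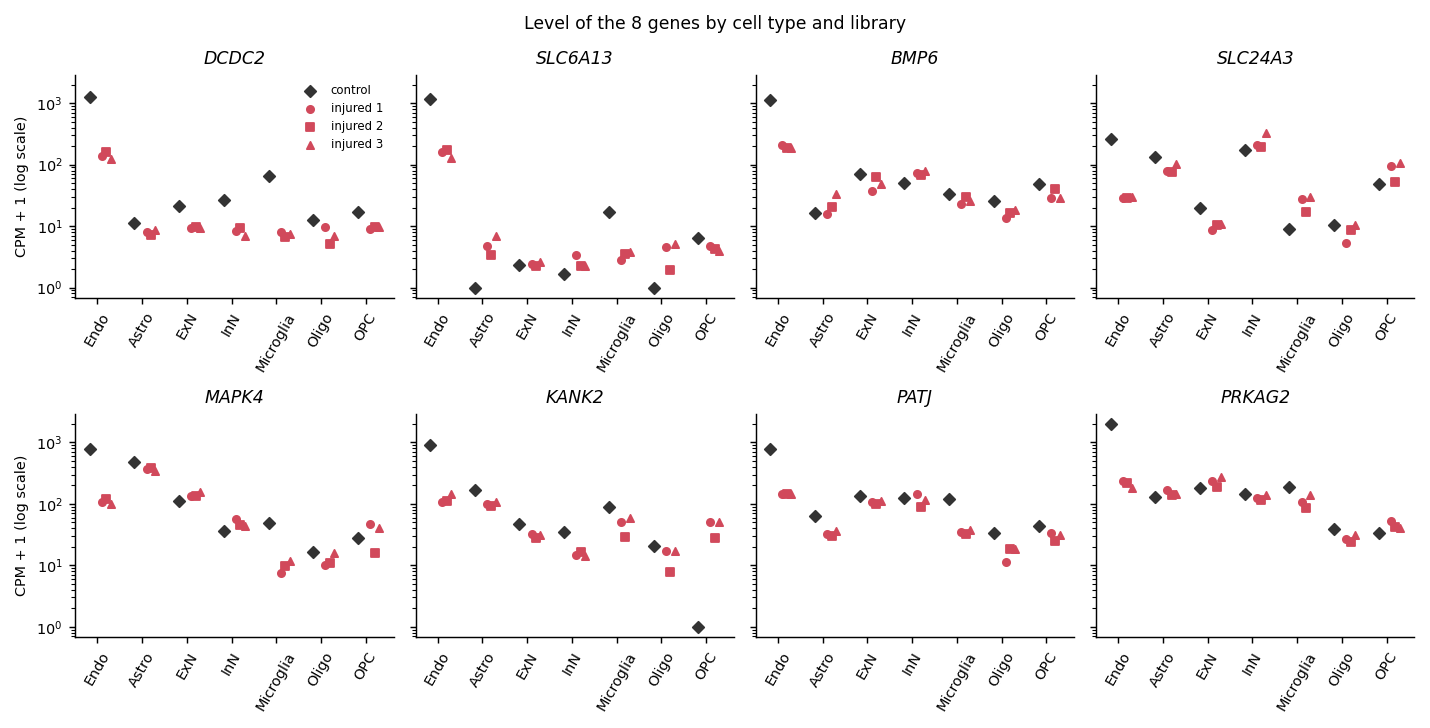
Level of each of the 8 genes (CPM + 1, log scale) in each annotated cell type, with 1 black diamond for the control library and 1 red symbol for each injured library. In Endo the control value stood above all 3 injured values for every gene. In the other cell types its side differed between genes and types, but for *DCDC2* it was above all 3 in each type. *MAPK4* and *SLC24A3* were high in astrocytes or inhibitory neurons (InN) too, and *PRKAG2* in excitatory neurons (ExN) of the injured libraries.

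The annotated class did not hold the same mixture of nuclei in both cohorts. By the authors' cluster numbers, which were assigned in each cohort separately, 155 of the 181 control Endo nuclei (85.6%) were in cluster 15, which was led by *CEMIP*, *SLC6A13* and *LAMA2*, and 26 were in cluster 22, which was led by *PLAT*, *LEF1* and *FLT1*. Fibroblast-like marker genes (12 listed) summed to 12517 CPM in control cluster 15 and 243 CPM in cluster 22, and endothelial markers (14 listed) to 921 and 10736 CPM. Most of the 12517 CPM came from *CEMIP* (5809 CPM) and *LAMA2* (4675 CPM), which were also leading genes of that cluster. The control nuclei labelled Endo were thus mostly fibroblast-like by these markers, chiefly by *CEMIP* and *LAMA2*, against the label. The member *DCDC2* was also among the 10 leading genes of control cluster 15, so that cluster and these members are not independent of each other.

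In the injured libraries, cluster 20, led by *CEMIP* and *COL1A2* with *DCN* and *LAMA2* among its 10 leading genes, held 13.8%, 14.4% and 18.7% of Endo nuclei. Its fibroblast-like markers summed to 10679 to 16677 CPM. Cluster 14, with 32.1%, 38.3% and 38.7%, was endothelial-like and led by *SLC2A1*, *FLT1* and *VWF*, with the mural gene *RGS5* also among its leading genes. Cluster 11, also endothelial-like, held 0.784%, 1.21% and 3.44% and carried haemoglobin transcripts (*HBB*). Cluster 19 held 53.3%, 46.1% and 39.2% and is left unnamed. It was led by *HBB*, *SPP1* and the neuronal genes *NEFM* and *NEFL*, its endothelial markers summed to 250 to 277 CPM and its fibroblast-like markers to 361 to 603 CPM, and its median depth was 1081 to 1231 UMIs. The study's 6 excitatory neuron markers summed to 5957, 6103 and 5767 CPM there, against 798 to 1164 CPM in clusters 14 and 20 and 594, 3682 and 2423 CPM in the small cluster 11. The part of these transcripts in the members' values was not tested. No control Endo cluster had these leading genes.

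**Figure D2:**
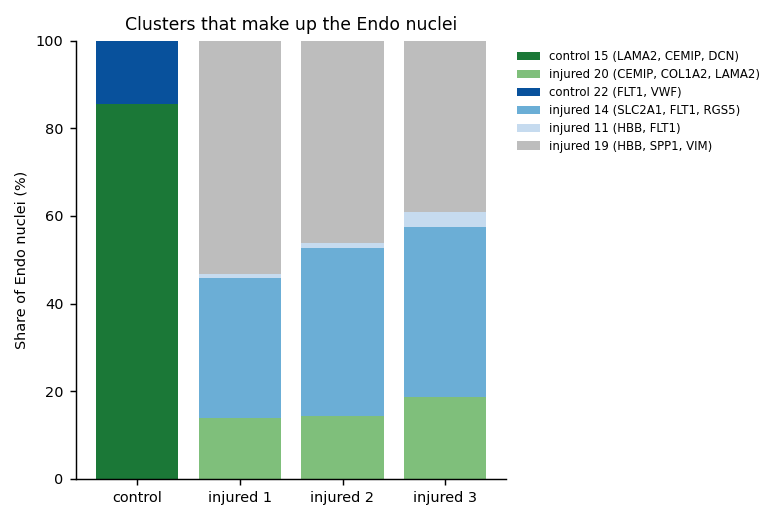
Share of the Endo nuclei (%) in each of the authors' clusters, 1 stacked bar for each library, with the leading genes of each cluster in the legend. The fibroblast-like clusters (green) made up 85.6% of control and 13.8 to 18.7% of injured Endo nuclei. Clusters were numbered in each cohort separately, and no control Endo cluster had the leading genes of injured cluster 19 (grey).

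The members followed the fibroblast-like clusters in both cohorts. In control, 97.8 to 100% of the Endo UMIs of each member came from cluster 15, which held 89.9% of all control Endo UMIs. In the injured libraries, cluster 20 gave 95.2 to 96.4% of the Endo UMIs of *DCDC2* and 68.6 to 79.2% of those of *SLC6A13*. For *BMP6* this was 77.5 to 85.3% and for *SLC24A3* 78.8 to 82.3%. For *MAPK4*, *KANK2*, *PATJ* and *PRKAG2* it was between 51.0 and 68.3%, although cluster 20 held only 18.0 to 23.3% of the Endo UMIs.

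Between the fibroblast-like clusters, control 15 and injured 20, each member was again lower in all 3 injured libraries, but by less than over the whole class. *BMP6* was at 924, 817 and 624 CPM in injured replicates 1, 2 and 3 and at 1242 CPM in control, a ratio of 1.58 beside 5.87 over all Endo nuclei. *SLC6A13* was at 673, 758 and 375 CPM against 1302, a ratio of 2.16 beside 7.62, and *DCDC2* at 695, 844 and 498 CPM against 1400, a ratio of 2.06 beside 9.07. Injured replicate 3 was the lowest library for these genes, as for every other member but *KANK2*, and for *LAMA2*.

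The ratios were larger for *PRKAG2* and *KANK2*. *PRKAG2* was at 760, 827 and 413 CPM in the injured clusters and 2196 CPM in control, a ratio of 3.30 beside 9.51 over all Endo nuclei. *KANK2* was at 285, 362 and 327 CPM against 981, a ratio of 3.02 beside 7.52. *SLC24A3* (112, 122 and 103 CPM against 294), *MAPK4* (350, 449 and 270 CPM against 856) and *PATJ* (470, 482 and 390 CPM against 845) had ratios of 2.62, 2.40 and 1.89. *LAMA2* itself, which is no member, had a ratio of 2.15 between these clusters and 6.76 over all Endo nuclei.

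In the fit over these clusters, the median log2 fold change of the 8 members was -1.14, from -1.67 ± 0.34 (SE) for *PRKAG2* to -0.61 ± 0.27 for *BMP6*, beside 0.10 over the 9887 genes tested. A log2 fold change below -1 was found for 5 members and for 9.6% of all genes, and a control level above all 3 injured libraries for 8 members and for 36.8% of all genes. The clusters and the members were chosen on these nuclei, so these values carry no test. In the same fit the 12 fibroblast-like markers had a median of 1.36, beside the same 0.10. None of them was called by edgeR and 8 had an unadjusted p below 0.05. Over all genes this fit called only 11 of 9887, and 2103 had an unadjusted p below 0.05. The part of this marker list in the members' values was not tested. Without injured cluster 19, the median over the members was -2.42, and 8 members and 14.3% of all genes were below -1.

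**Figure D3:**
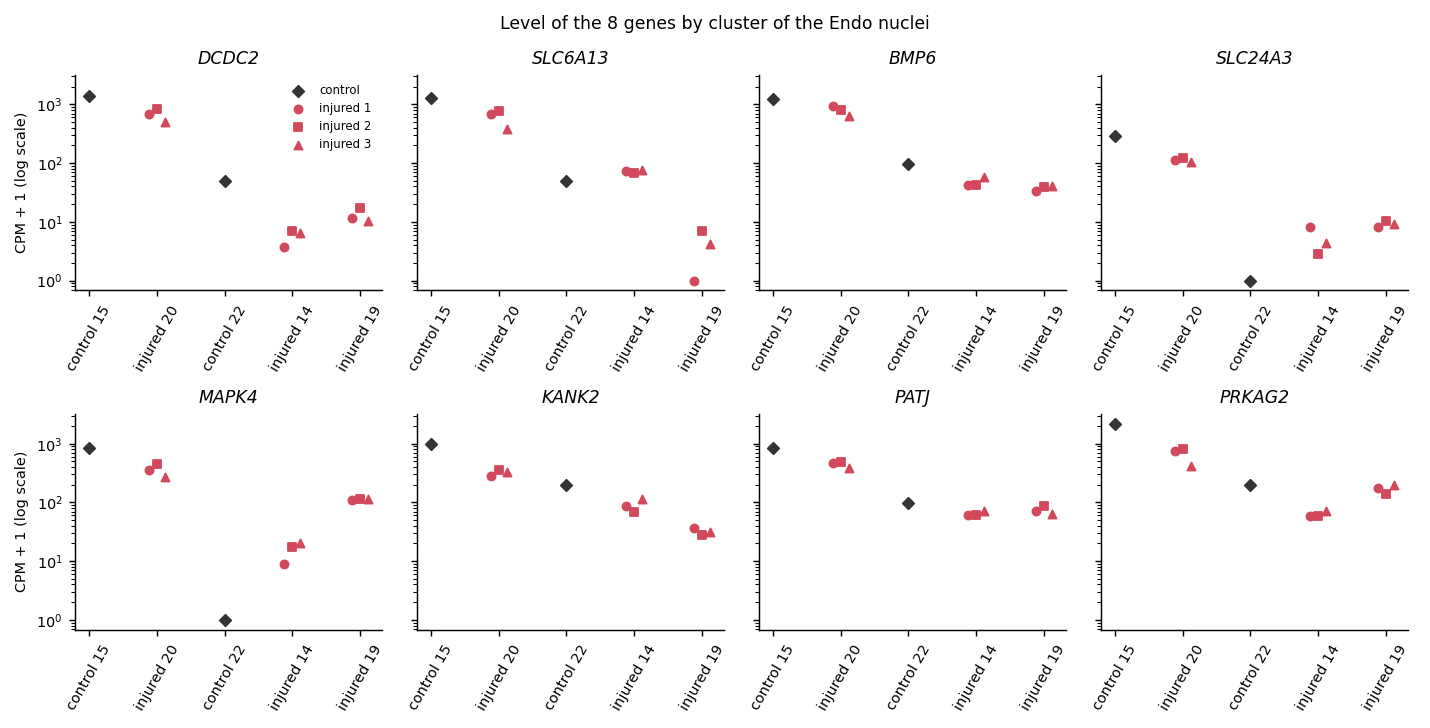
Level of each member (CPM + 1, log scale) in the clusters of the Endo nuclei, from control (black) and the 3 injured libraries (red). Values were highest in the fibroblast-like clusters control 15 and injured 20, with injured 20 below control 15 for each gene. Control cluster 22 held 26 nuclei and had no UMI of *SLC24A3* or *MAPK4*.

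Outside cluster 20 the members differed. In the endothelial-like injured cluster 14, *SLC6A13* stood at 72.8, 67.0 and 74.2 CPM, against 48.6 CPM from a single UMI in control cluster 22. *KANK2* stood there at 86.2, 68.4 and 113 CPM, against 194 CPM (4 UMIs) in control cluster 22. *DCDC2* was at 2.70, 5.89 and 5.55 CPM, against 48.6 CPM from 1 UMI. In cluster 19 the order was another: *MAPK4* was at 108, 112 and 111 CPM and *PRKAG2* at 175, 139 and 198 CPM, whereas *SLC6A13* was at 0, 6.02 and 3.12 CPM. *MAPK4* was thus higher in cluster 19 than in cluster 14 in all 3 animals, and *SLC6A13* was lower. In control cluster 22 there were 0 UMIs of *SLC24A3* and *MAPK4* in 26 nuclei, with an upper exact limit of 13.2% of nuclei.

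In control, co-detection within nuclei separated the members into those seen almost only with *LAMA2* and those also seen without it. In control Endo, 70 of 70 *MAPK4*-positive nuclei, 73 of 74 *DCDC2*-positive nuclei and 80 of 81 *SLC6A13*-positive nuclei also had a *LAMA2* UMI. For *BMP6* this was 88.9% (80.0 to 94.8%), and for *SLC24A3*, *KANK2*, *PATJ* and *PRKAG2* it was 74.1 to 77.8%. Few of these nuclei had an *FLT1* UMI: 0 of 40 for *SLC24A3*, and from 1.23% of *BMP6*-positive to 5.88% of *KANK2*-positive nuclei. In injured Endo, the share of member-positive nuclei with a *LAMA2* UMI was lower for every gene, from 39.1% for *PRKAG2* to 80.3% for *SLC6A13*. It was 76.0% for *DCDC2* and 45.6% for *MAPK4*, so that no member was seen almost only with *LAMA2* in injured Endo at full depth. These shares are not matched for depth, and the injured nuclei were deeper. Nuclei with both *FLT1* and *LAMA2* were 7.96% of injured Endo (mean over the libraries) and 1.10% of control. With 500 UMIs drawn at random from every nucleus they were 1.20% and 0.55%. Without thinning, 13.3% of *DCDC2*-positive, 14.9% of *SLC24A3*-positive and 17.6% of *MAPK4*-positive injured nuclei had an *FLT1* UMI. For the other 5 genes this was 30.7 to 42.7%. At full depth *LAMA2* was detected in 65.7% of control and 15.96 to 22.1% of injured Endo nuclei, and *FLT1* in 13.8% and 25.8 to 36.6%. At 500 UMIs per nucleus, 112 control nuclei had a *LAMA2* UMI and 69 had none, against 474 and 3945 injured nuclei. For *FLT1* these counts were 15 and 166 in control and 918 and 3501 in injured. The other markers that the study used for Endo were also lower in control, *IGFBP7* at 407 against 1348 to 1784 CPM and *SLC2A1* at 142 against 823 to 1014 CPM.

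Read the other way, a *LAMA2* UMI came with more members in both cohorts. After random draws of 500 UMIs from every nucleus, *DCDC2* was found in 47.3% of *LAMA2*-positive control nuclei (37.8 to 57.0%) and 20.0% of *LAMA2*-positive injured nuclei (16.5 to 23.9%). *PRKAG2* was found in 55.4% (45.7 to 64.8%) and 15.2% (12.1 to 18.7%), and *BMP6* in 37.5% (28.5 to 47.1%) and 24.1% (20.3 to 28.2%). *BMP6* was thus the member with the smallest ratio between the cohorts. In injured nuclei without a *LAMA2* UMI the shares were 0.760 to 6.26%. The median share over the 8 members was 35.7% in *LAMA2*-positive control and 15.3% in *LAMA2*-positive injured nuclei at this depth, and 59.7% and 34.04% without thinning. In injured nuclei with an *FLT1* UMI this median was 12.5% without thinning and 1.906% at 500 UMIs. In injured nuclei without an *FLT1* UMI it was 13.5% and 5.01%. In control at 500 UMIs it was 3.33% with *FLT1* (15 nuclei) and 30.1% without it.

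**Figure D4:**
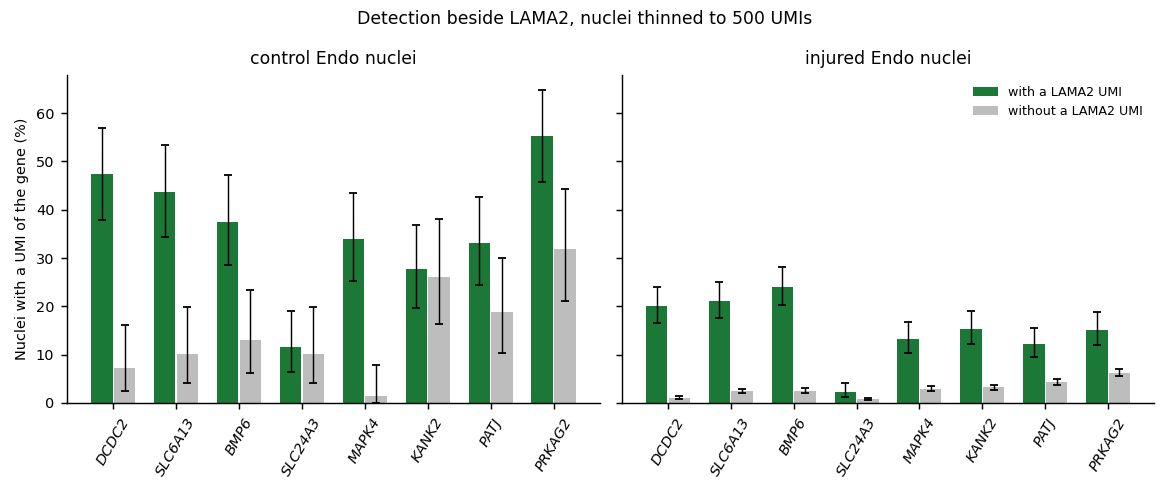
Share of Endo nuclei (%) with a UMI of each member among nuclei with (green) and without (grey) a *LAMA2* UMI, in control (left) and the 3 injured libraries together (right), with each nucleus thinned to 500 UMIs. Error bars are 95% exact binomial intervals. *DCDC2*, *SLC6A13* and *MAPK4* were found at higher shares beside *LAMA2* in both cohorts, whereas *KANK2* reached 27.7% of control nuclei with *LAMA2* and 26.1% without it.

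Within control cluster 15, 36 nuclei had no *LAMA2* UMI, and the members fell into separate sets there. *DCDC2*, *SLC6A13* and *MAPK4* had 0 UMIs in these nuclei (upper limit 9.74% of nuclei), against 1748, 1626 and 1068 CPM in the 119 nuclei with *LAMA2*. *SLC24A3* was at 411 CPM without and 265 CPM with *LAMA2*, *KANK2* at 685 and 1054 CPM, *PATJ* at 630 and 898 CPM, *PRKAG2* at 1205 and 2442 CPM and *BMP6* at 301 and 1476 CPM. The nuclei without *LAMA2* had a median of 867 UMIs, and those with it 1038. They carried high levels of *SLC4A4*, a bicarbonate transporter gene (6627 against 177 CPM), *SLC47A1*, which encodes an organic cation exporter (6189 against 95.2 CPM), and *TGFB2* (3450 against 129 CPM), genes chosen after their values were seen. *DCN* was at 329 CPM in them, against 782 CPM in the nuclei with *LAMA2*.

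The same split was made in injured cluster 20. In nuclei with *LAMA2*, all 8 members were below control in all 3 libraries, as were 36.8% of all genes. In nuclei with *LAMA2*, *BMP6* was at 1339, 1161 and 808 CPM in injured replicates 1, 2 and 3, against 1476 CPM in control, a mean ratio of 1.34. *PRKAG2* was at 887, 931 and 427 CPM in these nuclei, a mean ratio of 3.26. The nuclei without *LAMA2* were not alike in the cohorts, so the members' values in them are set side by side only. *SLC47A1* was found in 86.1% of them in control and 32.8% in injured (6189 against 927 to 1829 CPM), *SLC4A4* in 83.3% and 40.3% (6627 against 1953 to 3467 CPM), *TGFB2* in 75.0% and 39.3% (3450 against 1009 to 1686 CPM), and *DCN* in 27.8% and 69.8%. In these nuclei *SLC24A3* was at 81.6, 107 and 71.3 CPM in injured and 411 CPM in control, and the part of the mixture in this was not tested. *BMP6*, *KANK2*, *PATJ* and *PRKAG2* were likewise below control there in all 3 libraries, as were *SLC47A1*, *SLC4A4* and *TGFB2*. *SLC6A13*, at 0 UMIs in control, was at 163, 159 and 110 CPM in the injured nuclei without *LAMA2*, and *DCDC2* and *MAPK4*, also at 0 UMIs in control, were at 35.0, 55.5 and 46.3 CPM and at 40.8, 115 and 92.7 CPM. In the fit over *LAMA2*-positive nuclei of these clusters, the median log2 fold change of the members was -0.96, beside 0.08 over all genes, and 4 members and 9.61% of all genes were below -1.

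**Figure D5:**
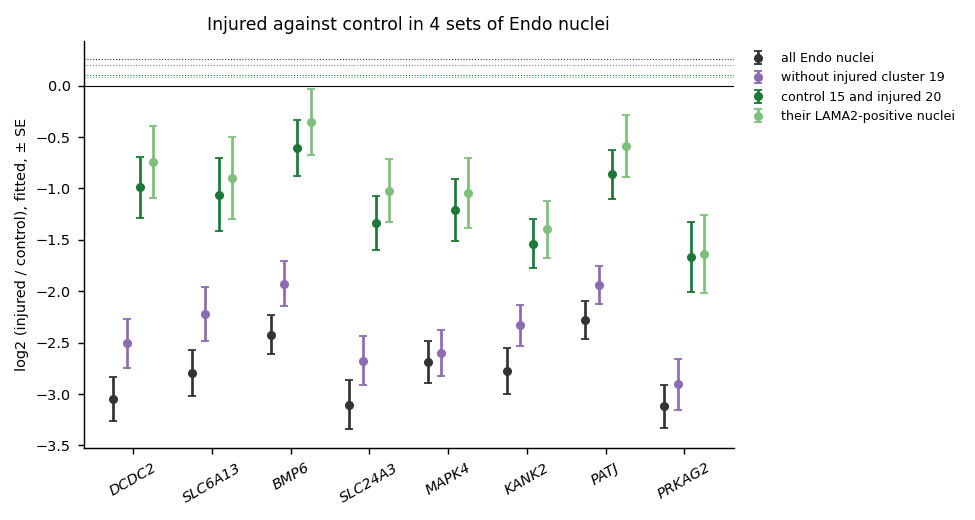
Fitted log2 ratio of injured to control (points, ± SE) for the 8 members in all Endo nuclei, without injured cluster 19, in the fibroblast-like clusters, and in their *LAMA2*-positive nuclei. Dotted lines give the median over all genes in each fit. Points moved from a median of -2.79 in all Endo nuclei to -0.96 in the *LAMA2*-positive nuclei, and all stayed below 0.

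Control levels were also reweighted to the injured mixture. Endo nuclei were classed by *FLT1* and *LAMA2* (either, both or neither), and the control level of each class was weighted by the share of Endo UMIs that the class held in each injured library. The weighted levels lay between the control and injured levels for all 8 members. For *DCDC2* the weighted level was 306 CPM, between 1264 measured in control and 139 in injured (means over the 3 libraries). For *SLC6A13* it was 364 CPM between 1176 and 154, and for *BMP6* 371 CPM between 1127 and 192. For *KANK2* it was 627 CPM between 902 and 119.9 and for *PATJ* 549 CPM between 769 and 144. For *MAPK4* it was 566 CPM between 769 and 109 by these classes and 254 CPM by the marker list with most UMIs. On the log2 scale the median step was -0.82 from control to weighted and -2.05 from weighted to injured. With nuclei classed by the marker list with most UMIs, these medians were -1.39 and -1.62, so the size of either step depends on the classes. The class with both genes held 13.04%, 19.8% and 18.9% of the injured Endo UMIs but only 2 control nuclei, of which 1 carried 5 *MAPK4* UMIs (2290 CPM over the class), and the 566 CPM rests largely on that nucleus. The class with neither gene held 39 control nuclei, of which 36 were in the fibroblast-like cluster 15, whereas 71.8 to 79.5% of this class in the injured libraries was in cluster 19. The classes thus did not hold like nuclei in both cohorts, and the steps describe these classes only.

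In the other cell types, 0 of the 45 tests of a member that could be made passed the limits by edgeR, and 0 by DESeq2, and 17 had an unadjusted p below 0.05. Over all genes the share called was 1.5% in astrocytes, 3.85% in excitatory neurons (ExN), 3.41% in inhibitory neurons, 0% in microglia, 0.774% in oligodendrocytes and 0.0697% in oligodendrocyte precursor cells (OPC). An unadjusted p below 0.05 by edgeR was found for 3735 of 12445 genes in astrocytes, 6085 of 15122 in excitatory and 4518 of 12984 in inhibitory neurons. It was found for 2857 of 13470 genes in microglia, 3582 of 11631 in oligodendrocytes and 2279 of 11476 in OPC. For the members these counts were 3 of 8, 4 of 8, 5 of 7, 3 of 8, 1 of 7 and 1 of 7 in the same order. In microglia DESeq2 called 318 genes. *DCDC2* had an adjusted p of 0.00674 in excitatory and 0.0062 in inhibitory neurons by edgeR's test, with log2 fold changes of -1.15 ± 0.17 and -1.69 ± 0.30 (SE), and missed the call because it was detected in under 10% of nuclei. The median log2 fold change of the tested members was -0.39 in astrocytes, -0.32 in excitatory neurons, -0.03 in inhibitory neurons, -1.14 in microglia, -0.51 in oligodendrocytes and 0.45 in OPC. The medians over all genes were 0.048, 0.0039, 0.0027, 0.42, 0.024 and 0.17 in the same order.

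*MAPK4* was not specific to vessels. In astrocytes it stood at 362, 384 and 337 CPM in the injured libraries and 482 CPM in control, which was higher than in injured Endo. The fitted log2 fold change in astrocytes was -0.31 ± 0.18 (adjusted p = 0.28 by edgeR). In excitatory neurons it was at 135, 134 and 152 CPM against 111 in control, with a log2 fold change of 0.45 ± 0.13 and an adjusted p of 0.0486. The injured libraries were thus all below control in astrocytes and all above it in excitatory neurons.

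*SLC24A3* was not specific to vessels either, and in the injured libraries it was higher in inhibitory neurons than in Endo. It stood at 209, 191 and 323 CPM in injured inhibitory neurons and 170 CPM in control, with a log2 fold change of 0.61 ± 0.27 (adjusted p = 0.141 by edgeR). Leaving out injured replicate 2 raised the genes called in inhibitory neurons from 443 of 12984 to 1499 of 12607. In that fit *SLC24A3* had 0.75 ± 0.16 and passed the limits (adjusted p = 5.04e-05). In astrocytes it was at 78.5, 75.2 and 101 CPM against 131 in control (log2 fold change -0.50 ± 0.25, adjusted p = 0.212). *SLC6A13* was near 0 outside Endo, with 0 UMIs in control astrocytes and oligodendrocytes and 2.39 to 6.003 and 0.914 to 4.16 CPM in the injured libraries. These ranges cross the limit of 3 control UMIs (3.47 and 2.35 CPM), so no difference could be set at this depth.

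*BMP6* was at 72.0, 65.8 and 76.7 CPM in injured inhibitory neurons and 48.6 CPM in control, with a log2 fold change of 0.66 ± 0.18 (adjusted p = 0.0361 by edgeR). Without injured replicate 2 it passed the limits there (0.71 ± 0.21, adjusted p = 0.0038), in a fit that called 1499 of 12607 genes. In injured excitatory neurons *PRKAG2* was about as high as in injured Endo (179 to 231 CPM). It stood there at 237, 184 and 276 CPM, against 181 CPM in control, with a log2 fold change of 0.48 ± 0.21 (adjusted p = 0.147 by edgeR). Injured replicate 2 was the library nearest to control. *PATJ* was at 108, 98.3 and 109 CPM in excitatory neurons against 134 in control (-0.24 ± 0.11, adjusted p = 0.16 by edgeR). Its injured levels in inhibitory neurons were 89.4 to 141 CPM, against 142 to 146 CPM in injured Endo. Injured *KANK2* was at 92.6 to 105.7 CPM in astrocytes and 106.5 to 144 CPM in Endo.

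*KANK2* was lower in injured astrocytes (99.97, 92.6 and 106 CPM against 164) and excitatory neurons (31.1, 26.7 and 29.9 CPM against 46.6), with log2 fold changes of -0.61 ± 0.20 and -0.56 ± 0.14 and adjusted p of 0.0834 and 0.0303, neither of which passed the limits. In OPC it had 0 UMIs in 171 control nuclei and stood at 50.5, 26.8 and 49.9 CPM in the injured libraries, at least 2.64-fold higher than 3 UMIs over the control library. With all libraries the OPC comparison did not pass the limits (adjusted p = 0.112 by edgeR), and 8 of 11476 genes did. Without injured replicate 2 it passed them (adjusted p = 0.000257), as did 808 of 11306 genes. *DCDC2* was lower in all 3 injured libraries in each of the other 6 cell types, for example at 8.34, 8.48 and 8.47 CPM against 20.3 in excitatory neurons. Its control levels there, 10.4 to 64.3 CPM, were far below the 1264 CPM in Endo, and the part of free RNA in them was not tested. *LAMA2* was likewise lower in all 3 injured libraries in each of these 6 types.

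In the 129 control microglia, *LAMA2* was at 265 CPM and *FLT1* at 570.5 CPM, and in injured microglia they were at 14.3 to 16.9 and 106 to 127 CPM. *DCDC2* (64.3 against 5.71 to 6.88 CPM), *MAPK4* (48.2 against 6.39 to 10.9 CPM) and *PATJ* (121 against 31.7 to 36.04 CPM) were higher in these control microglia as well. Their control values rest on 8, 6 and 15 UMIs. The part of vascular RNA in them was not tested.

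The injured libraries were all below control in 29 of the 45 tested pairs of member and cell type, and all above it in 11. By cell type, all-below and all-above counts of members can be set beside all genes. In astrocytes they were 5 and 2 of 8, against 43.2% and 36% of all genes. In excitatory neurons they were 5 and 2 of 8, against 47.5% and 31.3%, and in inhibitory neurons 3 and 3 of 7, against 44.9% and 30.8%. In microglia they were 7 and 1 of 8, against 40.8% and 49.4%. In oligodendrocytes they were 6 and 0 of 7, against 43.5% and 32.9%, and in OPC 3 and 3 of 7, against 40% and 41.4%.

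The contrast in Endo is that in which the members were chosen, with mixtures of nuclei that differ between the cohorts. In it, genes related to the members by family or pathway were tested. These genes had not been used to choose the members, but their lists were made with earlier results of these data known. Of 86 such genes 72 were listed and 69 tested, of which 5 were called higher, 7 lower and 57 were not called, beside 4.19% of all genes called higher and 1.99% called lower. The BMP pathway gave 4 higher and 2 lower of 21. *BMP5*, a ligand close to *BMP6*, fell with it: it was at 89.2, 70.1 and 89.2 CPM in the injured libraries and 461 CPM in control (log2 fold change -2.35 ± 0.22, adjusted p = 0.000635 by edgeR). *BMPR1A*, a receptor of BMP ligands, fell by 1.24 on the log2 scale (adjusted p = 0.00757). The target genes *ID1* and *ID3*, which encode inhibitors of transcription factors, rose by 4.15 ± 0.48 and 4.03 ± 0.37, from 5 and 7 UMIs in control (adjusted p = 0.00113 and 0.000635). *ENG*, a coreceptor of endothelial cells, rose by 2.21 ± 0.36. *ID2* was called higher from 3 control UMIs, with a ratio of 5.75 (counting interval 1.96 to 27.96).

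Of 15 polarity and junction genes, the PAR complex genes *PARD6G* (-2.12 ± 0.27) and *PARD3* (-1.21 ± 0.22) were called lower and none higher. *TLN2*, which encodes a talin, the partner of KANK proteins, was called lower (-1.64 ± 0.23, adjusted p = 0.00235), and was the one called gene of 7. *PRKAA1*, a catalytic subunit of AMPK, was called lower (-1.53 ± 0.20, adjusted p = 0.00197), and the other 8 genes of that list were not called. None of 5 relatives of *MAPK4* was called by edgeR. *DCLK1*, a doublecortin family kinase gene, was called higher (1.912 ± 0.322, adjusted p = 0.00521). Between the fibroblast-like clusters 0 of 55 relatives were called by edgeR, with 12 at an unadjusted p below 0.05. Over all genes that fit called only 11 of 9887, with 2103 at an unadjusted p below 0.05, so few calls could be made in it.

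The vascular marker lists were tested in the same fit. Of 14 tested endothelial markers 8 were called higher and 1 lower, with a median log2 fold change of 2.02. Of the 45 markers in all vascular lists 11 were called higher. This was 1 of 41 with nuclei thinned to 500 UMIs and 3 of 44 in nuclei with at most 2500 genes. Under the other settings tried 7 to 16 were called higher, apart from the fit between the fibroblast-like clusters alone. Over all genes, 553 of 13205 were called higher in the main fit. This was 211 of 10571 after thinning to 500 UMIs and 519 of 12728 with at most 2500 genes. *EGFL7* (3.58 ± 0.35), *ADGRL4* (2.34 ± 0.34) and *VWF* (2.22 ± 0.33) rose, *TIE1* had a ratio of 7.88 (2.69 to 38.3) from 3 control UMIs, and *KDR*, the main VEGF receptor, fell by 1.54. *FLT1* rose by 2.06 ± 0.37 (adjusted p = 0.00688). Of 10 mural markers, *RGS5* (3.51 ± 0.48), *NOTCH3* (ratio 7.81, 2.67 to 37.9) and *TAGLN* (ratio 25.0, 4.49 to 990, from 1 control UMI) were called higher. Of 12 fibroblast-like markers, *LAMA2* (-2.63 ± 0.21, adjusted p = 0.000613), *CEMIP* (-2.27 ± 0.31) and *COL12A1* (-1.28 ± 0.25) were called lower and none higher. The other 9 were not called, and the median of the list was -0.51, beside 0.26 over all genes. *COL1A1*, chosen after its values were seen, was at 282, 118 and 385 CPM in the injured libraries and 29.4 CPM (6 UMIs) in control, with a log2 fold change of 3.28 ± 0.95 (adjusted p = 0.0422 by edgeR, not called). None of 5 perivascular macrophage or 4 lymphocyte markers was called. In all Endo nuclei of the injured libraries endothelial markers summed to 4472 to 6045 CPM and fibroblast-like markers to 2403 to 4432 CPM, against 1911 and 11279 CPM in control. Between the fibroblast-like clusters alone, 0 of 32 tested vascular markers were called by edgeR, and 12 had an unadjusted p below 0.05. Over all genes these counts were 11 and 2103 of 9887.

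The genes whose levels over the 28 sums of library and cell type were most like those of the members differed between them. By Pearson's r of log2(CPM + 10) among 12572 genes, *DCDC2* was nearest to *STRA6*, a retinol uptake receptor gene (r = 0.985), *LAMA2* (0.984) and *TBX15* (0.978). *SLC6A13* was nearest to *MRVI1* (0.981), *TBX15* (0.980) and *ARHGEF28* (0.979), and *BMP6* to *KCNK2*, a potassium channel gene (0.96), *MAMDC2* (0.94) and *SLC47A1* (0.93). For *SLC24A3* these were *MYLK3* (0.95), *MIPOL1* (0.89) and *TMEM132C* (0.85), and for *PATJ* they were *TASP1* (0.95), *GULP1* (0.89) and *KCNK2* (0.88). *MAPK4* was nearest to *EFNB2* (0.89), *CAMK2G* (0.89) and *CYP7B1* (0.89), *KANK2* to *ACSS3* (0.90), *SLC7A11* (0.86) and *COPZ2* (0.86), and *PRKAG2* to *ADA* (0.89), *AMPD3* (0.89) and *SLC16A6* (0.88). Among the members, *DCDC2* and *SLC6A13* were most alike (0.96), and *SLC24A3* was least like the others (0.14 to 0.36). The sums share libraries and depth and include the Endo sums on which the members were chosen, so these values are a description.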

How the data were processed

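Nuclei of V1 from 3 injured and 3 uninjured marmosets (pooled) were profiled on the 10X droplet platform. The deposited tables hold raw UMI counts per gene and nucleus, which the authors made with Cell Ranger 3.1.0 on the calJac3 genome and did not normalize, and tables of nuclei with library, cluster and cell type. Per the methods, doublets were removed with Scrublet in the injured cohort and Seurat was used in control with a limit on genes per nucleus, although nuclei above that limit are in the deposited control table.

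Counts were summed per library and annotated cell type. R 4.3.3 and edgeR 4.0.16 were used to test the genes in both tables (16383). Factors were TMM, low genes were removed by filterByExpr, glmQLFit and glmQLFTest gave the tests, and p-values were adjusted by Benjamini-Hochberg over all genes tested. The spread came from the 3 injured libraries. The steps were tested on simulated counts. CPM uses all UMIs of the nuclei summed, and the injured table lists more genes (32323) than the control table. Thinning drew 500 or 1000 UMIs per nucleus without replacement, and shallower nuclei were left out. Python 3.11.15 with numpy 2.4.6, pandas 2.3.3, scipy 1.17.1 and matplotlib 3.10.9 was used. Intervals are exact (Clopper-Pearson, 95%), and a count of 0 was bounded by 3 UMIs over the cohort. Depth per nucleus limits detection of low genes.

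The members, the gene lists and the tests were chosen with earlier results of these data known. The genes named are the 8 members, *LAMA2*, *FLT1*, *IGFBP7*, *SLC2A1*, up to 4 called genes for each list and direction by size of change, and the 3 genes most like each member among genes with at least 50 UMIs in each cohort. Leading genes of clusters and of *LAMA2*-negative nuclei were named after their values were seen. Clusters were called fibroblast-like or endothelial-like by the vascular marker list with the highest sum, and cluster 19, in which the excitatory neuron list was higher than any vascular list, was left unnamed. Alternatives were DESeq2 1.42.0, RLE factors, library size scaling, no low-count filter, an adjusted p limit of 0.05, thinning, nuclei with at most 2500 genes, leaving out each injured library, and subsets of Endo nuclei. Those by cluster were added after the data were seen. No sequence or coordinate is given, since no genome of the files' build was used here. The result of 1 called gene among the relatives is not reported here, although it is in the counts.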

Additional observations from a re-analysis of the deposited data

Results flagged for a closer look

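*BMP6*, *SLC24A3*, *MAPK4* and *PRKAG2* were lower than control in all 3 injured libraries in some cell types and higher in all 3 in others, counting cell types with at least 10 control UMIs. The difference between cell types was not tested. *BMP6* had a log2 fold change of 0.66 in inhibitory neurons, -0.41 in excitatory neurons and -0.61 in oligodendrocytes. *SLC24A3* had 0.61 in inhibitory neurons, -0.50 in astrocytes and -0.95 in excitatory neurons. *MAPK4* had 0.45 in excitatory and 0.53 in inhibitory neurons, -0.31 in astrocytes and -0.38 in oligodendrocytes. *PRKAG2* had 0.30 in astrocytes and 0.48 in excitatory neurons, and -0.0795 in inhibitory neurons, -0.51 in microglia and -0.43 in oligodendrocytes.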

How the results depend on the processing

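With 1 control library the control spread was not measured, and single nuclei of 922 UMIs at the median limit detection. No paired analysis was possible because the control cohort has 1 pooled library. The methods describe its animals as uninjured, whereas a supplementary figure legend names contralateral V1 as the control.

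The members' median in Endo, a log2 fold change of -2.79, was -2.90 with library size scaling, -2.93 and -2.94 with nuclei thinned to 500 and 1000 UMIs, -2.99 with at most 2500 genes, -1.88 in nuclei without a *LAMA2* UMI, -0.56 in nuclei with an *FLT1* UMI, -2.42 without injured cluster 19, -1.14 in the fibroblast-like clusters and -0.96 in their *LAMA2*-positive nuclei. The cluster subsets were chosen after seeing the data. It ran from -2.88 to -2.76 with each injured library left out. In nuclei with an *FLT1* UMI the median over all genes was 2.69, and with *SLC24A3* at its bound the members' median was -0.61. The fitted value was above 0 for *SLC6A13* (0.62 ± 1.04 SE, 1 control UMI) without *LAMA2*, and for *SLC6A13* (0.31 ± 0.75, 2 control UMIs) and *BMP6* (1.20 ± 1.13, 1 control UMI) with *FLT1*. *SLC6A13* with *FLT1* was at 97.1 CPM in control and 67.4 to 81.2 CPM in injured, so its measured direction did not turn. With 0 control UMIs, *MAPK4* without *LAMA2* and *SLC24A3* with *FLT1* have no fold. In these subsets CPM was taken over the genes listed in both tables. Against 3 control UMIs, the injured mean of *MAPK4* was at least 0.15 higher on the log2 scale. That of *SLC24A3* was below this floor, so that its direction could not be set at this depth. The cause was not tested.

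Member tests called in other cell types were 0 in the main comparison and 3 at an adjusted p limit of 0.05. These were *KANK2* lower and *MAPK4* higher in excitatory neurons and *BMP6* higher in inhibitory neurons. With each injured library left out 0 to 3 were called, the 3 being without injured replicate 2. Over all genes the 0.05 limit raised the calls from 582 to 1834 in excitatory and from 443 to 1433 in inhibitory neurons. Without injured replicate 2 they were 1499 in inhibitory neurons, and rose from 8 to 808 in OPC. Relatives called in Endo, 12 of 69, were 21 at the 0.05 limit and 10 to 19 with each injured library left out (19 without injured replicate 2). Over all genes 816 of 13205 were called in Endo, 1802 at the 0.05 limit and 513 to 1583 with each injured library left out. Between the fibroblast-like clusters 0 of 55 relatives were called (12 at an unadjusted p below 0.05 by edgeR). Over all genes these counts were 11 and 2103 of 9887. Vascular markers called, 15 of 45, (11 higher, 4 lower) were 4 after thinning to 500 UMIs (1 higher, 3 lower), 8 with at most 2500 genes (3 higher, 5 lower) and 13 to 21 with each injured library left out. Over all genes, 211 of 10571 were called higher and 150 lower after thinning to 500 UMIs. With at most 2500 genes, 519 of 12728 were called higher and 270 lower.

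The injured share with a *LAMA2* UMI, 20.0%, was 10.4% after thinning to 500 UMIs (18.99 to 22.1% with each library left out). In control it was 65.7%, with 112 of 181 nuclei after thinning to 500 UMIs. At 1000 UMIs, which only 85 control nuclei reached, it was 75.3%, at another depth than the 10.4%. The injured share with an *FLT1* UMI, 31.7%, was 20.0% after thinning to 500 UMIs (29.2 to 34.6%). In control it was 13.8%, and 8.29% and 5.88% after thinning to 500 and 1000 UMIs. Classed by the marker list with most UMIs, which is another measure than these shares, 27.0% of injured and 80.1% of control nuclei were fibroblast-like and 39.7% and 14.9% endothelial. Median co-detection with *LAMA2* was 59.7% in control and 34.04% in injured, and 35.7% and 15.3% after thinning to 500 UMIs. The weighted steps, -0.82 and -2.05, were -1.39 and -1.62 by marker lists, and ran from -0.90 to -0.79 and from -2.09 to -2.01 with each injured library left out.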
